A study of Homo sapiens with 24 samples.

Results

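SRC and ABL family kinases were followed at the RNA level in U87 MG cells, an established human glioblastoma line, after proton therapy (PT) with or without Si306, a small molecule inhibitor of SRC. The 9 genes SRC, FYN, YES1, LYN, LCK, FGR, CSK, ABL1 and ABL2 were taken by the gene name that the array gives its spots, with every probe whatever its value. They held 17 of the 41000 gene probes and 62 of the 43376 gene spots, and 15 of the 17 probes, with all 9 genes, were bright enough to be tested. Agilent whole human genome arrays with 2 colours compared 4 configurations 24 h after irradiation. U87 2 Gy and U87 10 Gy, cells given 2 or 10 Gy of protons alone, were each set against untreated cells. U87 Si306 + 2 Gy, cells given 10 µM Si306 as well, and its 10 Gy counterpart U87 Si306 + 10 Gy were each set against PT alone at the same dose. All groups are labelled as the same cell line, and Si306 without PT was not analysed here, so that a log2 ratio with Si306 sets Si306 and PT against PT alone. The study describes the cells of these arrays as given Si306 before PT, and the vehicle of the controls is not given in the sources used here.

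SRC family kinases are tyrosine kinases of the inner face of the plasma membrane. They carry signals from integrins and growth factor receptors to adhesion, movement and growth, and SRC and FYN are known to be active in glioblastoma downstream of the EGF receptor. Their SH3 and SH2 domains fold back on the kinase domain when CSK, the C-terminal SRC kinase, has phosphorylated the tail, which keeps them off. ABL1 and ABL2 have a similar SH3, SH2 and kinase core, followed by a long tail that binds actin. SRC, FYN and YES1 occur in most tissues, while LYN, LCK and FGR are best known from blood cells, and ABL1 and ABL2 are widespread. An inhibitor acts on the kinase protein, whereas the arrays measured mRNA, and in bulk RNA fewer cells of a type and less RNA per cell cannot be told apart.

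The 24 deposited scans came from 8 arrays, 4 on each of 2 slides, scanned 3 times each. Scans of an array were averaged, which left n = 2 arrays for a configuration. The scan labelled U87 2 Gy replicate 5 lay on an array of U87 10 Gy and the scan labelled U87 10 Gy replicate 2 on an array of U87 2 Gy. Both were left out, and each differed less from the scans of its array (SD of the log2 ratio across probes 0.0772 and 0.0757) than from the scans of its label (0.178 and 0.171). Whether the 2 arrays of a configuration held RNA of separate cultures is not settled by labels or headers, and the p-values measure only the spread between arrays. Treated RNA carried Cy5 and control RNA Cy3 on every array, so that within a configuration a dye effect of a probe and the treatment cannot be told apart. An equal dye effect cancels in a difference between doses.

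All PT arrays lay on slide 1 and all Si306 arrays on slide 2, and the slides stood apart. The mean level of 7731 of 30418 probes (25.4%) differed by over 2-fold between them. CHI3L1, a marker of glioblastoma cells, read 2759 to 4278 units of net Cy3 intensity and 9655 to 12783 of Cy5 on slide 1 at probe A_23_P137665, but was not well above background in either dye on slide 2. In both channels of every array, 1025 probes were well above background on slide 1 alone and 618 on slide 2 alone. VIM, NES, CD44 and GFAP were well above background on all 8 arrays, while S100B was so in Cy5 of 1 array only. Summed over the glioblastoma markers, Cy3 intensity was 108081 to 140974 on slide 1 and 52530 to 100900 on slide 2, while Cy5 intensity was 252414 to 287097 and 191566 to 321943, which overlapped. Of the leukocyte markers, PTPRC, CD3D and SPI1 were not well above background on any array, while CD3E was well above it in Cy3 of 5 and Cy5 of 8, ITGAM in Cy3 of 1 and Cy5 of 6, and CD14, CSF1R and CD79A in both dyes of all 8. The summed Cy3 intensity of the marker list was 1359 to 1834 on slide 1 and 1071 to 1247 on slide 2, and Cy5 intensity 3776 to 4701 and 1959 to 2764. PT alone RNA, in Cy5 on slide 1 and in Cy3 on slide 2, shared in this difference, so for it slide, dye and the RNA prepared for each slide cannot be told apart. The part of these differences in the results was not tested. Whether both slides held RNA of the same cells, as labelled, is not settled by these values, and any level set across slides carries that limit. Each log2 ratio was formed within an array, whereas a difference between a PT and a Si306 configuration also holds the difference between slides.

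Probe sequences show how separately the relatives were measured. The array's design file places the probes on build hg17, for which no annotation was used here, and only probes with an open reading frame throughout are printed. ABL1 and ABL2 are the closest pair, since both have a probe on the same stretch of the SH3 domain. Capitals mark the bases at which these probes are identical once aligned.
ABL1 A_24_P393711, chr9:130759746-130759805, plus strand: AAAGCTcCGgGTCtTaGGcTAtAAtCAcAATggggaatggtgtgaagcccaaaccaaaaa
ABL2 A_24_P263878, chr1:175827430-175832127, minus strand: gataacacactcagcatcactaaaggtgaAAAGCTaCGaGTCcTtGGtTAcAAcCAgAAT
Of the 31 aligned bases 23 were identical and 8 differed, with no shared run over 9 bases between any probes of the 17. The ABL2 probe spans 4698 bases of genome with its 60 bases and thus crosses an intron. Of the other ABL1 probes, the first below lies upstream of the second, and CSK, the regulator of the family, has a single probe.
ABL1 A_24_P291016, chr9:130740386-130740445, plus strand: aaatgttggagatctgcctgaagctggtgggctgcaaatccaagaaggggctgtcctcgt
ABL1 A_24_P281101, chr9:130759018-130759077, plus strand: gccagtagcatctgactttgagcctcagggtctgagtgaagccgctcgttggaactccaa
CSK A_23_P152024, chr15:72881418-72881477, plus strand: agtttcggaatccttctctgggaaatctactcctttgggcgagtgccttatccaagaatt
The other ABL2 probe, A_23_P138099 (chr1:175808497-175808556, minus strand), has no open forward frame and is given by position. It lies downstream of the SH3 probe on the gene's strand. GC content ran from 35.0% to 55.0% over the 17 probes.

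A single kinase probe changed by 2-fold or more, and it was an ABL2 probe in U87 Si306 + 2 Gy. A probe was called when its adjusted p in limma was under 0.05 and its change at least 2-fold. None of the 15 kinase probes was called in U87 2 Gy, where 0.688% of all probes were, none in U87 10 Gy (0.914% of all probes), 1 in U87 Si306 + 2 Gy (0.652%) and none in U87 Si306 + 10 Gy (0.342%). Between doses none was called for PT alone (0.0395% of all probes) or for Si306 (0.155%). With the unadjusted p under 0.05 and no limit on size, 7, 7, 12 and 12 kinase probes passed in the configurations, beside 61.5%, 62.4%, 68% and 64.8% of all probes, and 3 and 5 between doses, beside 32.4% and 34.8%. With the scanner software's ratio FGR A_23_P103932 was called in 3 configurations, and ABL2 A_24_P263878 in U87 Si306 + 2 Gy beside the other ABL2 probe, with Cy3 not well above background for either, where 3.69%, 3.96%, 5.87% and 3.97% of all probes were called in the configurations.

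Small differences were frequent on the whole array, and the kinases stood near that background. By the adjusted p alone, 6 of 15 kinase probes differed in U87 2 Gy, where 57.2% of all probes did. Of them 4 were higher (32.1% of all probes) and 2 lower (25.1%). In U87 10 Gy 7 differed (58.2% of all probes), 5 higher (31.4%) and 2 lower (26.8%). In U87 Si306 + 2 Gy 11 differed (64.8%), 7 higher (36.3%) and 4 lower (28.5%), and in U87 Si306 + 10 Gy 12 (60.9%), 8 higher (33.1%) and 4 lower (27.8%). These counts include dim probes. In at least 1 dye, 1 of the 6, 2 of the 7, 5 of the 11 and 5 of the 12 were not well above background on either array. LCK and ABL1 A_24_P393711 with Si306 at both doses, and ABL1 A_24_P282416 with Si306 at 10 Gy, were not so in either dye, and nothing is read from their passing. The median log2 ratio of the kinase probes was 0.03, 0.04, 0.08 and 0.09 in this order, beside 0.02, 0.01, 0.03 and 0.02 for all probes tested. Between doses 1 kinase probe differed for PT alone (19.8% of all probes), a higher one (9.23%), with none lower (10.6%). For Si306 2 differed (21.1%), 1 higher (9.31%) and 1 lower (11.8%). With normexp on all spots, a setting chosen after seeing the data, 0, 0, 3 and 1 kinase probes passed the adjusted p in the configurations, beside 11.1%, 12.3%, 22.4% and 13.6% of all probes. These were LYN, ABL1 A_23_P60180 and ABL2 A_23_P138099 in U87 Si306 + 2 Gy and ABL2 A_23_P138099 in U87 Si306 + 10 Gy, so that no result for SRC or FYN passed there.

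**Figure D1:**
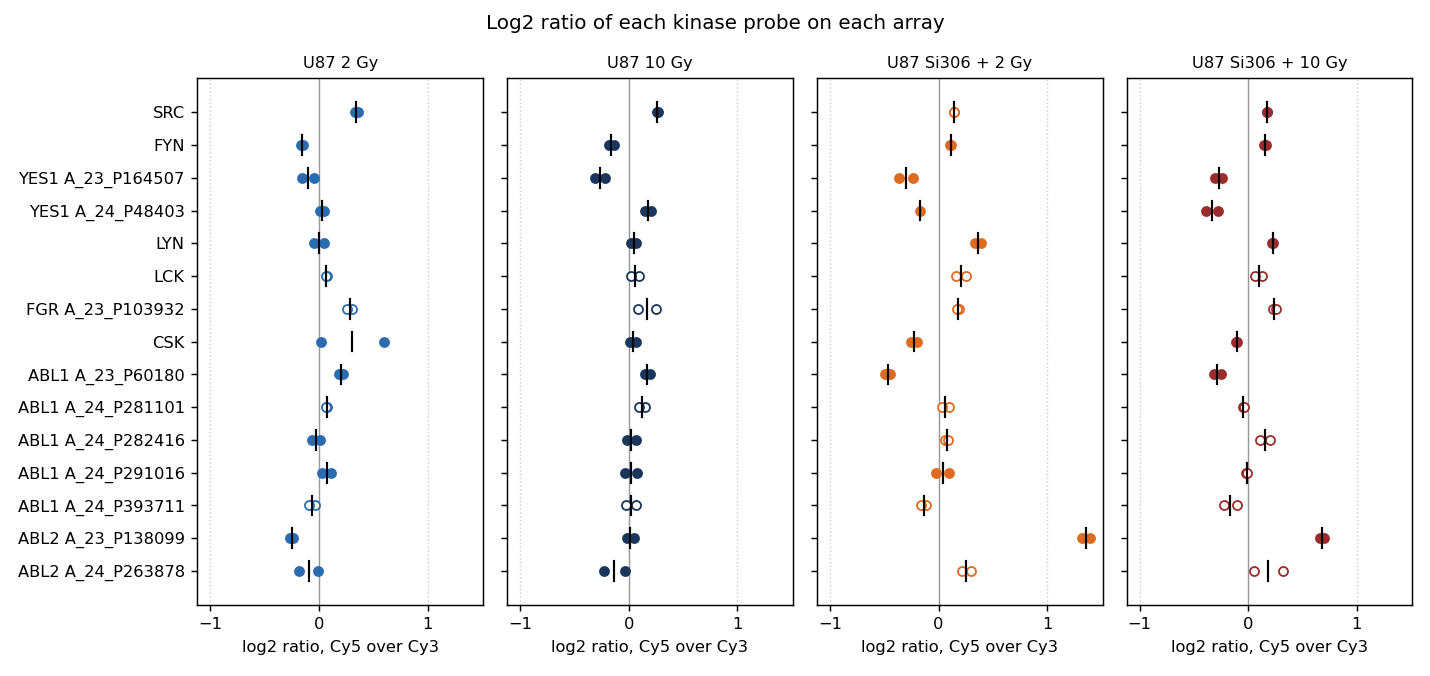
Log2 ratio of Cy5 (treated) over Cy3 (control) of the 15 tested kinase probes, a panel for each configuration, with a point for each of the 2 arrays and a bar at the fitted mean; open points mark probes not well above background in at least 1 dye on both arrays, and dotted lines 2-fold. ABL2 A_23_P138099 lies at 1.32 and 1.39 in U87 Si306 + 2 Gy, the only points past 2-fold, and the arrays of U87 2 Gy lie far apart for CSK.

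SRC itself was somewhat higher in treated than in control RNA in all 4 configurations. Its probe, with 10 spots on each array, gave log2 ratios of 0.36 and 0.33 on the arrays of U87 2 Gy and 0.27 and 0.26 in U87 10 Gy. With Si306 it gave 0.14 and 0.15 at 2 Gy and 0.18 and 0.17 at 10 Gy. Every array was above 0, and the arrays of a configuration lay close together. The PT and Si306 arrays are not ranked by size, since the control dye with Si306 was at or near background. The means were 0.34 (SE 0.03, adjusted p = 3.4e-06) and 0.26 (adjusted p = 2.4e-05) for PT, and 0.14 (adjusted p = 0.0018) and 0.17 (adjusted p = 0.00052) with Si306. These directions held on loess and on the scanner software's log ratio, but SRC turned to -0.10 in U87 Si306 + 2 Gy under median centring and was negative in all 4 configurations in the separate-channel model, which compares intensities between slides. SRC was near background, at 58.9 to 76.3 units of net Cy3 intensity on slide 1 and 41.7 to 48.2 on slide 2. PT alone at 2 Gy was not well above background for SRC on either array of slide 2, and PT alone at 10 Gy was well above it on 1 of the 2 arrays. The ratio in U87 Si306 + 2 Gy, 1.10-fold as fitted, is thus neither an exact fold nor a minimum.

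FYN, a widespread member of the SRC family, was lower after PT alone and higher after Si306. Its log2 ratios were -0.17 and -0.15 in U87 2 Gy and -0.14 and -0.18 in U87 10 Gy, against 0.11 and 0.12 in U87 Si306 + 2 Gy and 0.15 and 0.17 in U87 Si306 + 10 Gy. The groups of arrays did not overlap between PT and Si306. FYN fell by 0.16 at both doses of PT (SE 0.03, adjusted p = 0.0015 and 0.0012) and rose by 0.11 and 0.16 with Si306 (adjusted p = 0.0085 and 0.0014), but it turned positive with PT under median centring (0.45 and 0.34) and negative with Si306 in the separate-channel model (-1.47 and -1.43), which put FYN at -1.74 and -1.75 with PT. Without either array of U87 Si306 + 2 Gy the adjusted p there was 0.059 or 0.073.

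Repeat spots of the same probe on an array gave a check that the scans do not. FYN was below 0 in all 20 spots of U87 2 Gy (2 arrays with 10 spots each) and all 20 of U87 10 Gy, and above 0 in all 20 spots of each Si306 configuration. SRC was above 0 in all 20, 19, 18 and 20 spots measured after 2 Gy, after 10 Gy, and with Si306 at 2 Gy and at 10 Gy. The SD over the spots of an array had a median of 0.051 for FYN and 0.084 for SRC. Spots of an array share the RNA, the dye and the hybridization, so they are not replicates of a condition.

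**Figure D2:**
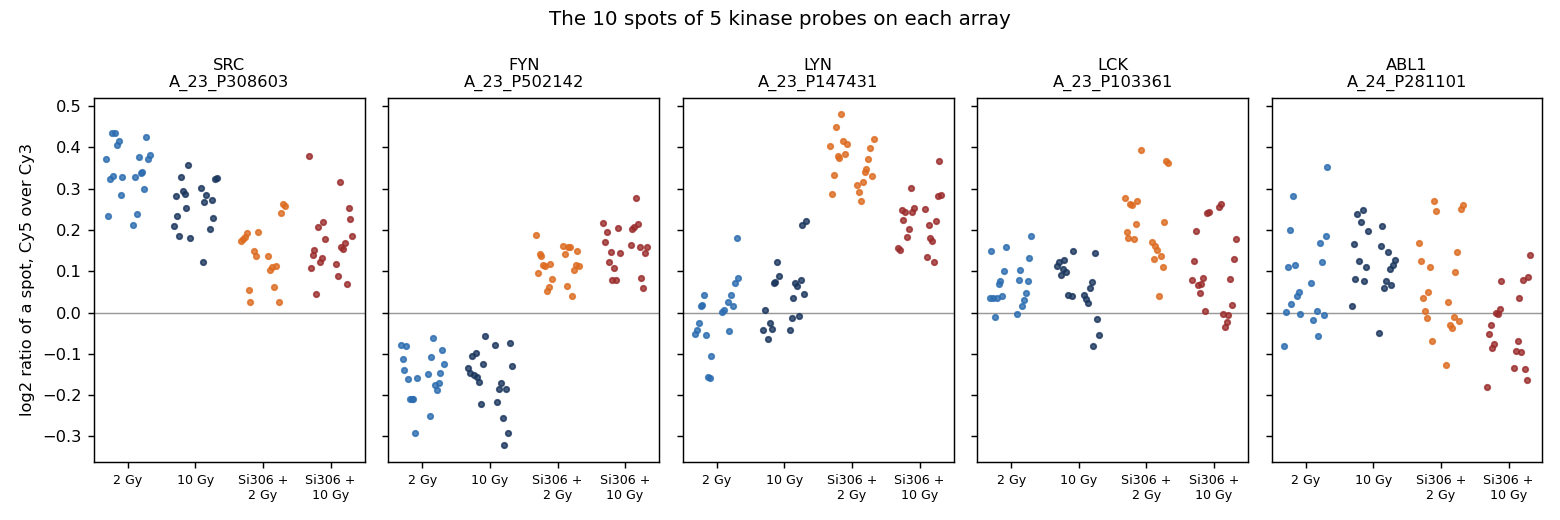
Log2 ratio of single spots, Cy5 over Cy3, for the 5 kinase probes that the array repeats 10 times; the 2 arrays of a configuration stand side by side, and a point is the mean of a spot over the scans of its array. FYN spots lie below 0 with PT and above 0 with Si306, LYN spots rise clear of 0 in the Si306 configurations and not with PT alone, and LCK and ABL1 A_24_P281101 straddle 0 in most configurations.

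The YES1 probes disagreed after PT, and both fell in U87 Si306 + 10 Gy. A_23_P164507, the 5′ one of the pair, gave -0.16 and -0.05 in U87 2 Gy, -0.31 and -0.22 in U87 10 Gy, -0.23 and -0.36 in U87 Si306 + 2 Gy and -0.24 and -0.31 in U87 Si306 + 10 Gy. It was below 0 on every array and fell by 0.27 in U87 10 Gy and by 0.30 and 0.27 with Si306 (SE 0.04, adjusted p = 0.00034, 0.00013 and 0.00029), while U87 2 Gy missed the limit (-0.10, adjusted p = 0.072). A_24_P48403 gave 0.05 and 0.01 in U87 2 Gy, 0.20 and 0.15 in U87 10 Gy, -0.17 on the array of U87 Si306 + 2 Gy that was left after outlier spots had been removed, and -0.39 and -0.28 in U87 Si306 + 10 Gy. It rose by 0.17 in U87 10 Gy (adjusted p = 0.0030) and fell by 0.17 and 0.33 with Si306 (adjusted p = 0.019 and 3.8e-05), a fall that median centring turned into 0.63 and 0.21. The p at 2 Gy rests on 1 array, assumed to vary like the other groups. For U87 10 Gy the probes thus passed the test in opposite directions, and their mean was -0.05.

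LYN rose with Si306 but not detectably with PT alone, where its signal was dim. LYN is best studied in B cells and is found in many other cells as well. Its probe gave -0.05 and 0.04 in U87 2 Gy and 0.02 and 0.07 in U87 10 Gy, against 0.39 and 0.34 in U87 Si306 + 2 Gy and 0.22 and 0.23 in U87 Si306 + 10 Gy. Every Si306 array lay above every PT array. On slide 1 LYN was near background, at 42.1 to 52.9 units of net Cy3 intensity and 49.4 to 68.3 of Cy5. On slide 2 it read 109 to 126 in Cy3 and 216 to 574 in Cy5. The PT ratios near 0 thus come from dim signal, and how far that limits them was not tested. The means with Si306 were 0.36 (SE 0.04, adjusted p = 4.8e-06) and 0.22 (adjusted p = 0.00023), and those of PT 0.00 (95% interval -0.08 to 0.07) and 0.04 (-0.03 to 0.12). LYN stayed positive with Si306 under every alternative tried, median centring, the scanner software's ratio and the separate-channel model included, and passed the test in all but the fit with normexp on all spots, which put it at 0.02 in U87 Si306 + 10 Gy (adjusted p = 0.98). With PT median centring put LYN at -0.26 in U87 2 Gy (adjusted p = 0.00010) and -0.11 in U87 10 Gy, and the separate-channel model at 1.24 and 1.26.

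LCK and FGR, known from T cells and from myeloid cells, sat at the edge of detection. LCK in control RNA was not well above background on any array, and with Si306 neither dye was, so that no fold is given there. After PT its Cy5 signal was well above background on 1 array of U87 2 Gy and both of U87 10 Gy. Its log2 ratios there, 0.07 and 0.06, did not pass the test (adjusted p = 0.13 and 0.18). FGR A_23_P103932 was well above background in Cy5 of all 8 arrays and in Cy3 of none. With Cy3 raised to the dimmest signal well above background where it fell below, the ratios were 1.14-fold in U87 2 Gy and 1.12-fold in U87 10 Gy. They were 1.13-fold in U87 Si306 + 2 Gy and 1.17-fold in U87 Si306 + 10 Gy. Since this probe entered the test through Cy5 alone, these are not minimum folds and do not support a difference. The FGR ratio was below 0 in each configuration under median centring, and the scanner software's ratio put it over 2-fold in 3 of them. The other FGR probes, A_24_P316634 and A_24_P51517, were not well above background in either dye of any array and were the pair left untested.

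CSK, which switches the SRC family off, gave 0.01 and 0.59 on the arrays of U87 2 Gy, 0.07 and 0.01 in U87 10 Gy, -0.25 and -0.20 in U87 Si306 + 2 Gy and -0.10 and -0.11 in U87 Si306 + 10 Gy. Array 2 of U87 2 Gy stood apart from the rest of slide 1 through its control dye, at 76.3 units of net Cy3 intensity against 138 to 154 on the other arrays, while Cy5 was 270 against 251 to 314. The mean of 0.30 in U87 2 Gy (SE 0.09, adjusted p = 0.017) was 0.01 without that array (adjusted p = 0.82). With Si306 the means of -0.23 (adjusted p = 0.053) and -0.11 (adjusted p = 0.34) missed the limit in the fit to all arrays, in which the spread of CSK includes the array that stood apart. Without array 2 of U87 2 Gy they were the same in size and passed (adjusted p = 0.00015 and 0.016).

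ABL1 changed at its 3′ probe, in opposite directions after PT and after Si306. A_23_P60180 (chr9:130792143-130792202), well above background in both dyes of all arrays, gave 0.22 and 0.19 in U87 2 Gy, 0.20 and 0.15 in U87 10 Gy, -0.49 and -0.45 in U87 Si306 + 2 Gy and -0.32 and -0.25 in U87 Si306 + 10 Gy. All PT arrays lay above 0 and all Si306 arrays below. It rose by 0.20 and 0.17 (SE 0.03, adjusted p = 0.00042 and 0.0012) and fell by 0.47 and 0.28 (adjusted p = 5.4e-07 and 2.9e-05), a fall that median centring put at 0.32 and 0.25, beside a median of 0.36 and 0.21 over all probes, and the separate-channel model at -0.11 and 0.10. PT alone is the treated RNA of the first pair of configurations and the control of the second, so the pairs are not independent. The other 4 ABL1 probes, all upstream, were dim. A_24_P291016 was well above background in both dyes with PT and gave 0.07 and 0.02, with neither passing the test. With Si306, A_24_P282416, A_24_P281101 and A_24_P393711 were not well above background in either dye on either array, and over the 4 configurations the mean log2 ratios of these probes ran from -0.16 to 0.15.

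ABL2 was the kinase with a 2-fold change in the loess fit, at its 3′ probe. ABL2, also called ARG, acts with cortactin at the actin cytoskeleton. A_23_P138099 gave 1.39 and 1.32 on the arrays of U87 Si306 + 2 Gy and 0.69 and 0.66 in U87 Si306 + 10 Gy, against -0.24 and -0.27 in U87 2 Gy and 0.04 and -0.01 in U87 10 Gy. The 4 configurations did not overlap. ABL2 rose by 1.36 in U87 Si306 + 2 Gy (2.56-fold, SE 0.03, 95% interval 1.28 to 1.43, adjusted p = 4.0e-10) and by 0.68 in U87 Si306 + 10 Gy (1.60-fold, adjusted p = 6.1e-08), and it fell by 0.25 in U87 2 Gy (adjusted p = 8.3e-05). In U87 10 Gy it was at 0.02 (95% interval -0.06 to 0.09). The rise with Si306 at 2 Gy lay between 1.01 and 2.16 under every processing of the log ratio of this probe, but the separate-channel model, which sets intensities of slide 2 against slide 1, gave -0.076 at 2 Gy and -0.81 at 10 Gy, and put PT at -1.66 and -1.49, while U87 2 Gy was at 0.33 under median centring.

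The upstream ABL2 probe had ratios of the same sign with Si306, whose size is not known. A_24_P263878, on the SH3 stretch printed above, gave 0.30 and 0.22 in U87 Si306 + 2 Gy and 0.32 and 0.05 in U87 Si306 + 10 Gy. PT alone was not well above background there on slide 2, and in U87 Si306 + 10 Gy Cy5 was above it on 1 array only. The fitted ratios of 0.26 and 0.19 (adjusted p = 0.0057 and 0.031) thus give neither an exact fold nor a minimum. The scanner software's ratio put it at 1.49 in U87 Si306 + 2 Gy (adjusted p = 0.015), beside 1.41 for the 3′ probe, and both ratios were below 0 once arrays were only centred on their median, as in the separate-channel model. After PT it gave -0.10 and -0.13 (adjusted p = 0.24 and 0.11). Which transcripts of ABL2 carry each probe was not tested.

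**Figure D3:**
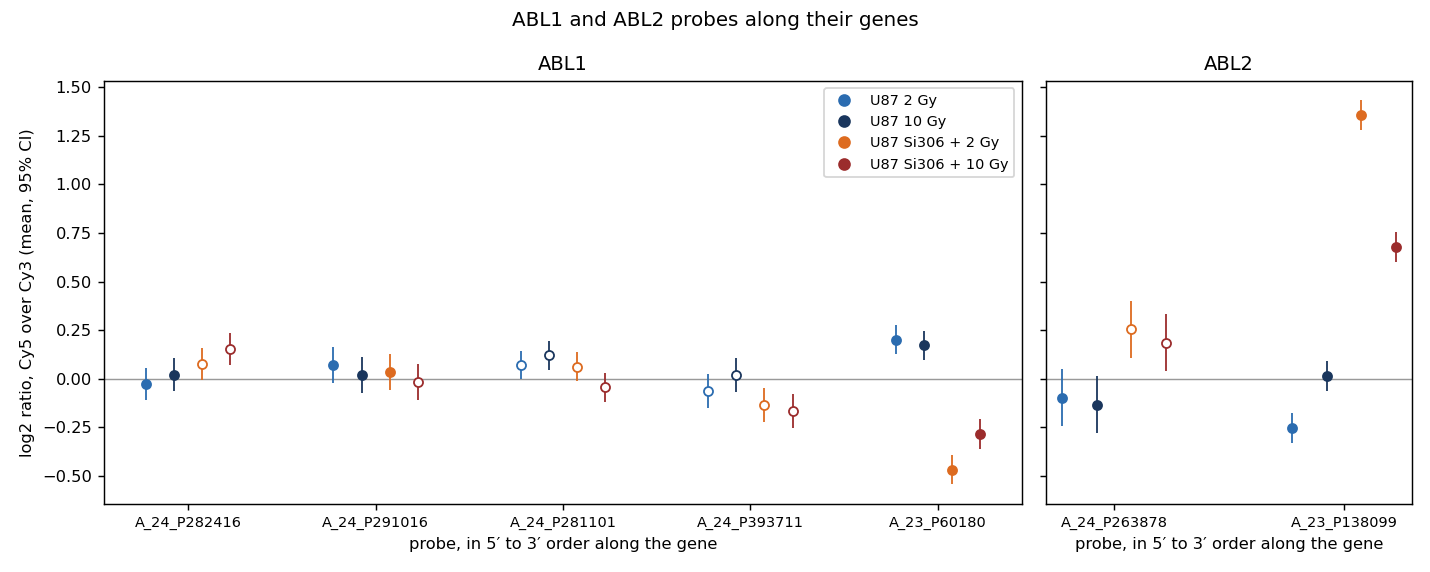
Mean log2 ratio with its 95% interval from limma (n = 2 arrays) for each ABL1 and ABL2 probe, in order along the gene from 5′ to 3′; open points mark probes not well above background in at least 1 dye on both arrays of the configuration. The 3′ probe of each gene stands away from 0 with Si306, ABL1 at -0.47 and -0.28 and ABL2 at 1.36 and 0.68, while most upstream points with Si306 are open and their distance from 0 cannot be set against that of the 3′ probes.

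ABL2 differed between proton doses, in the comparison in which an equal dye effect cancels. From 2 to 10 Gy of PT alone the log2 ratio of ABL2 A_23_P138099 increased by 0.27 (SE 0.05, adjusted p = 0.0034). No other kinase probe passed in this comparison, and ABL2 missed the limit under median centring (0.19, adjusted p = 0.13), with normexp on all spots (0.18) and as the mean of its probes (0.12). The effect of Si306 on ABL2 was smaller at 10 than at 2 Gy by 0.68 (SE 0.05, 95% interval -0.79 to -0.57, adjusted p = 8.7e-06). ABL1 A_23_P60180 was less lowered by Si306 at 10 Gy, with a difference of 0.18 (SE 0.05, adjusted p = 0.022). Without any 1 of the 4 Si306 arrays that ABL1 difference missed the limit (0.15 to 0.22, adjusted p 0.051 to 0.15), and it was -0.070 under median centring. For LYN the difference of -0.14 had an adjusted p of 0.069.

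The normalized levels place these ratios in the 7 labelled RNAs, on a log2 scale set across arrays. For FYN the order was untreated cells at 11.60 ± 0.02 (SD, n = 4 arrays), then 10 Gy and 2 Gy in Cy5 at 11.45 ± 0.07 and 11.44 ± 0.01 (n = 2 here and below), whose arrays overlapped. On slide 2 Si306 + 10 Gy and Si306 + 2 Gy followed at 10.01 ± 0.04 and 9.98 ± 0.01, and PT alone in Cy3 at 9.87 ± 0.01 for 2 Gy and 9.85 ± 0.02 for 10 Gy. Within each of these pairs the arrays overlapped, and between the pairs they did not. FYN from PT alone thus read 2.99-fold and 3.02-fold lower in Cy3 on slide 2 than in Cy5 on slide 1.

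LYN ran the other way between the slides. Si306 + 2 Gy was highest at 8.19 ± 0.04, then Si306 + 10 Gy at 7.99 ± 0.00, PT alone at 2 Gy at 7.82 ± 0.00 and at 10 Gy at 7.76 ± 0.01, all on slide 2 and none overlapping. On slide 1 the 10 Gy RNA was at 6.61 ± 0.03, untreated cells at 6.54 ± 0.06 and the 2 Gy RNA at 6.52 ± 0.00, and arrays of both irradiated RNAs overlapped with untreated cells. LYN from PT alone read 2.46-fold higher in Cy3 on slide 2 than in Cy5 on slide 1 at 2 Gy and 2.23-fold higher at 10 Gy.

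For ABL2 A_23_P138099 the PT alone control of slide 2 was the low point. Untreated cells and 10 Gy in Cy5 were both at 11.01 (SD 0.03 and 0.04), Si306 + 2 Gy at 10.81 ± 0.08 and 2 Gy in Cy5 at 10.78 ± 0.06, with overlapping arrays. Si306 + 10 Gy was at 10.1 ± 0.00, and PT alone in Cy3 on slide 2 at 9.45 ± 0.03 and 9.42 ± 0.03, which overlapped. The same PT alone condition therefore read 2.5-fold and 3.02-fold lower in Cy3 on slide 2 than in Cy5 on slide 1. The level of ABL2 with Si306, in Cy5, did not exceed that of untreated cells, in Cy3 on slide 1. Over 2-fold differences in mean level between slides were seen for 3 of the 15 kinase probes, FYN, LYN and this one, beside the 25.4% of all probes, and the median size of the difference was 0.28 against 0.50 on the log2 scale.

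**Figure D4:**
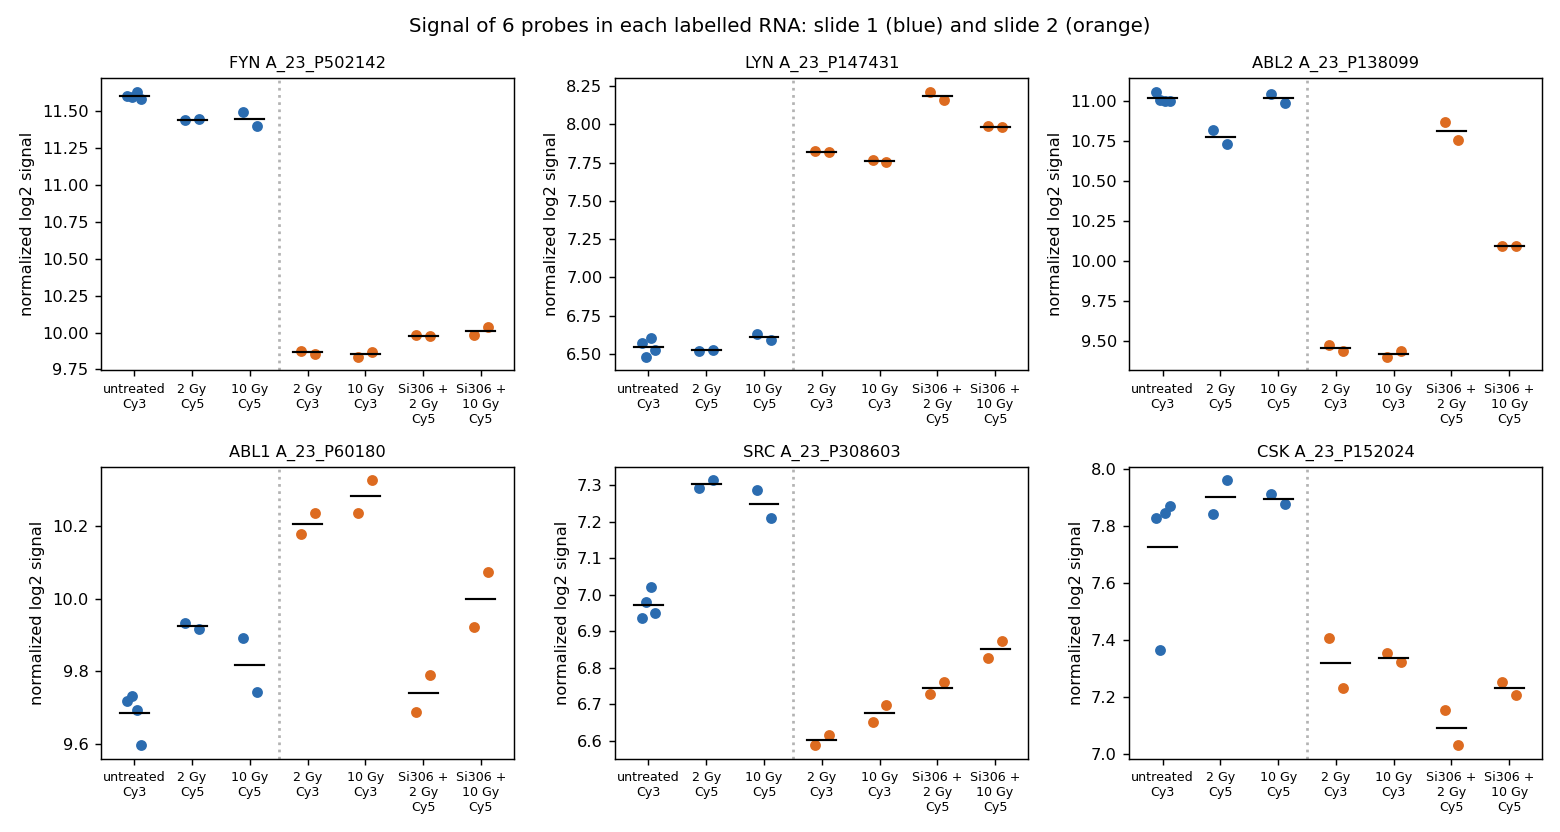
Normalized log2 signal of 6 kinase probes in each labelled RNA, a point for each array and a bar at the mean; the 7 places run from untreated cells to Si306 + 10 Gy, with arrays of slide 1 in blue and of slide 2 in orange, and the axes do not start at 0. FYN and ABL2 A_23_P138099 drop from slide 1 to slide 2 and LYN climbs, by more than any difference within a slide for FYN and LYN, and 1 untreated point of CSK, at 7.37, stands below its 3 neighbours.

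The genes whose pattern over the 8 arrays was most like ABL2 A_23_P138099, which ranged over 1.66 on the log2 scale, were found by the root mean square difference in log2 ratio among 28274 probes. DUSP1, a phosphatase of MAP kinases, was nearest at 0.0929, then ZNF417 at 0.159, LOX, which crosslinks collagen, at 0.161, COL8A1, a collagen chain, at 0.172 and PPP1R3C, a glycogen-targeting phosphatase subunit, at 0.178. Entries whose gene name on the array is a probe identifier or a sequence accession, 3 among the first 8, were passed over, and the one of them at 0.158 is described there as a phosphoglycerate kinase mRNA. DUSP1 gave -0.15 and -0.18 in U87 2 Gy, -0.04 and -0.12 in U87 10 Gy, 1.41 on both arrays of U87 Si306 + 2 Gy and finally 0.59 and 0.55 at the higher dose with Si306. Since the arrays within each configuration share treatment, dye and slide, the likeness is a description over 4 conditions.

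**Figure D5:**
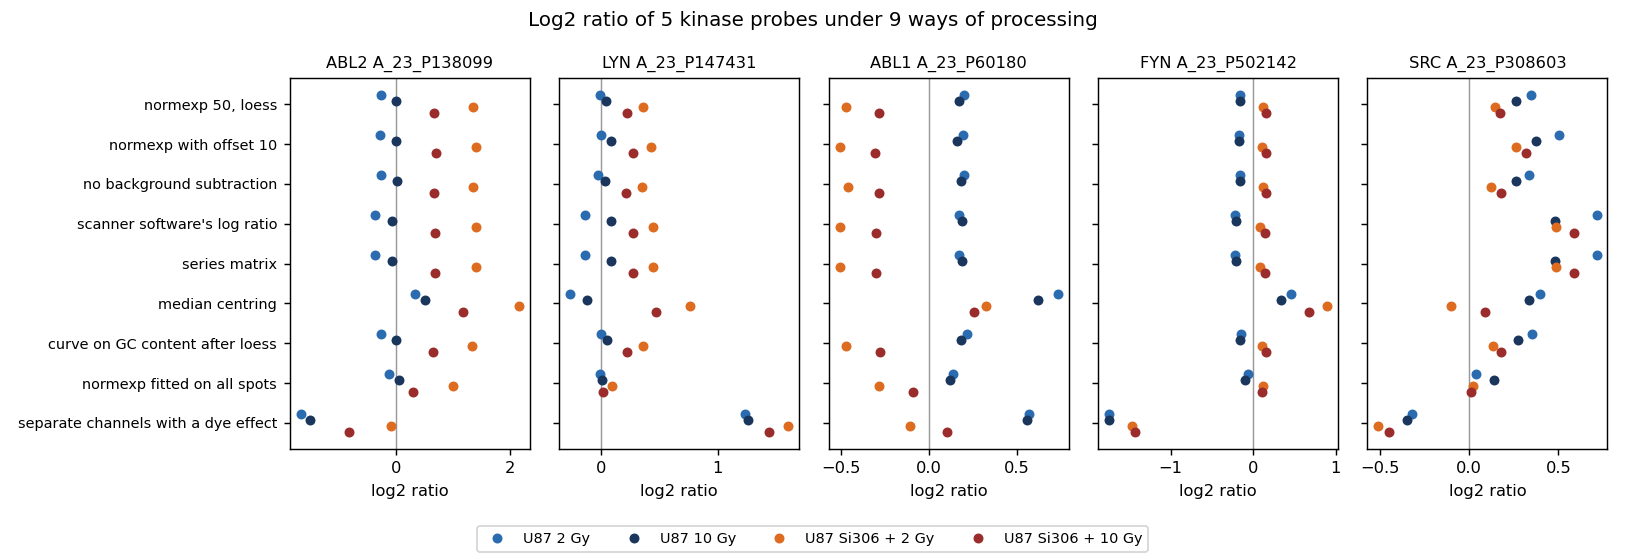
Log2 ratio of 5 kinase probes in the 4 configurations under 9 ways of processing, from normexp with loess at the top to the separate-channel model at the bottom, with the axis of each panel set to its own range. ABL2 with Si306 stays right of 0 in all but the bottom line, LYN with Si306 stays right of 0 throughout, and median centring carries FYN, ABL1 and ABL2 to the right together, along with the median of all probes at 0.20 to 0.36.

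Closer relatives of the family showed no 2-fold change in the loess fit. Over all gene names 0.724%, 0.964%, 0.725% and 0.371% were called in the configurations, so the lack of calls is no result about these genes. Of 17 genes (BLK and FRK, the PTK6, TEC and FES groups, TNK1, TNK2, SYK and ZAP70 among them) 13 were bright enough, 12 of them measured in U87 2 Gy. Higher and lower by the adjusted p were 6 and 2 in U87 2 Gy, 5 and 1 in U87 10 Gy, 6 and 4 in U87 Si306 + 2 Gy and 5 and 2 in U87 Si306 + 10 Gy. These were 66.7%, 46.2%, 76.9% and 53.8% of those tested, beside 56.8%, 57.2%, 66% and 61.9% of all gene names, each by its brightest probe as in the list. PTK6, a nonreceptor kinase of epithelia, rose by 0.33 and 0.36 with Si306 (adjusted p = 9.8e-06 and 5.4e-06), with values of 0.11 and 0.05 with normexp on all spots, where the latter missed the limit (adjusted p = 0.25), but of 0.83 and 0.71 under median centring and 2.17 and 2.20 in the separate-channel model. FES fell by 0.31 in U87 Si306 + 2 Gy (adjusted p = 1.2e-05) and was at -0.05 in U87 Si306 + 10 Gy (adjusted p = 0.18), a difference of 0.25 (adjusted p = 0.0043). In U87 Si306 + 2 Gy FES stood at 1.82 in the separate-channel model and at 0.10 under median centring (adjusted p = 0.10). FES was not well above background on slide 1, and PTK6 was so there in both dyes of 1 array only. Their separate-channel values, which compare slides, thus rest in part on background signal.

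Regulators of SRC and ABL showed no 2-fold change in that fit either. With 0.724%, 0.964%, 0.725% and 0.371% of all gene names called, that is no result about them. Of 25 genes 21 were tested, of which 11 were higher and 7 lower in U87 2 Gy, 9 and 6 in U87 10 Gy, 8 and 10 in U87 Si306 + 2 Gy and 7 and 7 in U87 Si306 + 10 Gy. These were 85.7%, 71.4%, 85.7% and 66.7% of those tested, beside 56.8%, 57.2%, 66% and 61.9% of all gene names. CDC37, the cochaperone that hands kinases to HSP90, gave 0.71 and 0.70 on the arrays of U87 2 Gy and 0.74 and 0.70 in U87 10 Gy, but -0.64 and -0.55 in U87 Si306 + 2 Gy and -0.42 and -0.30 in U87 Si306 + 10 Gy (adjusted p = 8.3e-08, 5.8e-08, 2.4e-07 and 1.3e-05). Median centring put CDC37 at 1.29 and 1.2 with PT and at 0.17 in both Si306 configurations, and the separate-channel model put it at -0.37 in both PT configurations and at -1.67 and -1.45 with Si306. With normexp on all spots it was at -0.12 in U87 Si306 + 10 Gy (adjusted p = 0.63). PTPN11, the SHP2 phosphatase, had at the brightest of its 4 probes means of 0.64 and 0.50 with PT and of -0.72 and -0.71 with Si306 (adjusted p = 4.7e-08, 2.3e-07, 1.9e-08 and 3.1e-08), but of 1.33 and 1.07 with PT and 0.42 and 0.023 with Si306 under median centring. The mean of the PTPN11 probes was 0.067 in U87 2 Gy (adjusted p = 0.089), 0.10 in U87 10 Gy and -0.34 and -0.32 with Si306, and separate channels gave 0.10 in U87 2 Gy (adjusted p = 0.30), -0.00061 in U87 10 Gy and -1.23 in both Si306 configurations. CBL, a ubiquitin ligase that marks active tyrosine kinases for removal, fell by 0.32 in U87 2 Gy and by 0.70 in U87 10 Gy (adjusted p = 1.7e-05 and 4.0e-08), but stood at 0.28 in U87 2 Gy under median centring and at 0.57 and 0.30 in the separate-channel model. With normexp on all spots CBL in U87 2 Gy was at -0.18 (adjusted p = 0.34).

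Adaptors and substrates held the 2-fold changes of the lists in the loess fit, both in U87 2 Gy. Of 41 genes 40 were found on the array, 2 of them by accession, and 37 were tested. Higher and lower were 16 and 10 in U87 2 Gy, 13 and 11 in U87 10 Gy, 12 and 15 in U87 Si306 + 2 Gy and 15 and 6 in U87 Si306 + 10 Gy. These were 70.3%, 64.9%, 73.0% and 56.8% of those tested, beside 56.8%, 57.2%, 66% and 61.9% of all gene names, and 2 of 37 were called in U87 2 Gy, where 0.724% of all gene names were. VAV3, a guanine nucleotide exchange factor, gave 1.16 and 1.11 on the arrays of U87 2 Gy and 1.03 and 0.92 in U87 10 Gy, with means of 1.14 (2.20-fold, adjusted p = 2.0e-09) and 0.97. ARHGAP35, a GTPase activating protein that SRC phosphorylates, gave 1.12 and 1.08 and then 0.99 and 0.95, with means of 1.10 (2.15-fold, adjusted p = 1.7e-09) and 0.97. Both were negative after PT in the separate-channel model, VAV3 at -1.16 and -1.30 and ARHGAP35 at -1.60 and -1.65, and positive under median centring. As means of their probes VAV3 was at 0.58 and 0.49 and ARHGAP35 at 0.37 and 0.30, all under 2-fold. With normexp on all spots VAV3 was at 0.70 in both PT configurations and ARHGAP35 at 0.41 and 0.59 (adjusted p = 0.32 and 0.11). With Si306 VAV3 was at -0.14 and -0.03 and ARHGAP35 at -0.18 and 0.06, but the separate-channel model put VAV3 at -2.44 and -2.31 and ARHGAP35 at -2.86 and -2.59. CTTN, the actin binding protein cortactin, rose by 0.88 in U87 2 Gy and by 0.26 in U87 10 Gy, where the separate-channel model gave -0.14, a difference between doses of -0.62 (SE 0.05, adjusted p = 2.0e-05). In U87 2 Gy CTTN was at 0.27 with separate channels (adjusted p = 0.057) and 0.34 with normexp on all spots (adjusted p = 0.052), and the latter put the difference between doses at -0.19 (adjusted p = 0.55).

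The medians of these lists stayed near 0. After 2 and 10 Gy of PT and then with Si306 at 2 and 10 Gy, the median log2 ratio was 0.07, 0.07, 0.04 and 0.03 for the relatives, 0.12, 0.02, -0.09 and 0.05 for the regulators, and 0.06, 0.01, -0.04 and 0.04 for the adaptors and substrates. Over all gene names it was 0.02, 0.02, 0.04 and 0.03.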

How the data were processed

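RNA of U87 MG cells was hybridized to 2-colour Agilent whole human genome arrays. Per the file headers, Feature Extraction 9.5.3.1 gave the deposited spot intensity of each dye and a log10 ratio of Cy5 over Cy3, which the authors' value table repeats, rounded, to within 0.005. The authors named GeneSpring for their analysis and no test. Of 24 scans 22 were used, as 8 arrays with 3 scans each less those whose label and array disagreed. Spots marked as outliers were left out, and the deposited intensity was background corrected (normexp, offset 50), normalized by loess (span 0.3, control spots at weight 0) and averaged over the spots and scans of a probe on an array. Probes well above background in either dye on both arrays of a configuration were tested with limma 3.58.1 in R 4.3.3, all 4 configurations in 1 fit, as the mean log2 ratio against 0 and as differences between doses, with Benjamini-Hochberg adjustment over all probes tested. Well above background meant the scanner software's mark on at least 50% of a probe's spots. The number of arrays limits the precision. The design had foreseen separate arrays for the labelled replicates, and the headers showed repeat scans.

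Every kinase probe was described. Of the lists, genes with a 2-fold call and the 3 with the largest log2 ratio were named, by their brightest probe, and for the kinase probe with the widest range the 5 nearest genes. Results of some list and marker genes are not reported here. Members and lists were chosen with earlier results of these data known. Alternatives covered background correction, the scanner software's ratio, the value table, median centring, separate channels with a dye effect, filters, scans, replicate numbers, arrays left out, probes of a gene and GC content. Normexp on all spots and a fit without both arrays that held a mislabelled scan were added after seeing the data. On simulated data limma recovered all 97 probes changed by 1.5 on the log2 scale for U87 2 Gy among 30393. No change under 1.5, no slide difference and no dye effect of single probes was simulated, so it does not bear on smaller ratios.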

Additional observations from a re-analysis of the deposited data

Results flagged for a closer look

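Differences between the 2 Gy and 10 Gy arms of the same comparison passed limma's test for 3 results, 1 of the 15 kinase probes tested between doses of PT, where 19.8% of all probes passed, and 2 of 15 between doses of Si306, where 21.1% did. ABL2 A_23_P138099 was higher at 10 than at 2 Gy of PT alone by 0.27 on the log2 scale (adjusted p = 0.0034), which missed the limit under median centring (0.19, adjusted p = 0.13), with normexp on all spots (0.18, adjusted p = 0.17) and as the mean of its probes (0.12, adjusted p = 0.22). For the same probe the difference in the effect of Si306 was -0.68 (adjusted p = 8.7e-06). For ABL1 A_23_P60180 the difference in the effect of Si306 was 0.18 (adjusted p = 0.022), which missed the limit without any 1 of the 4 Si306 arrays or with normexp on all spots (0.19, adjusted p = 0.44) and was -0.070 under median centring and 0.014 as the mean of the ABL1 probes (adjusted p = 0.84). Their causes were not tested.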

How the results depend on the processing

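The rise of ABL2 A_23_P138099 in U87 Si306 + 2 Gy was 2-fold or more under every alternative that kept log ratios of the probe (1.01 to 2.16). The mean of the ABL2 probes, 0.81, takes in the upstream probe, whose control was not well above background, so its size is not known. The difference of ABL2 A_23_P138099 between doses of Si306 kept its sign and passed the test in all alternatives run (-0.98 to -0.64, and -0.37 as the mean of the ABL2 probes), as LYN did in U87 Si306 + 2 Gy (0.099 to 1.60). The values given below turned with the scaling or fell short of the test, and the cause was not tested. Cy3 signals near background limit LCK, FGR and the upstream ABL1 and ABL2 probes, 2 arrays a configuration limit all tests, and the lone array of a configuration left by omitting 1 was assumed to vary like the rest.

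Median centring moved the median of all probes to 0.24, 0.20, 0.36 and 0.21 after 2 and 10 Gy of PT and for Si306 with 2 and 10 Gy, the order used below, and to -0.11 between doses of Si306. Signs are listed where the value passed the test before or after they turned. LCK and ABL1 A_24_P281101, A_24_P282416 and A_24_P393711 with Si306, and ABL1 A_24_P281101 in U87 2 Gy, were not well above background in either dye. Nor was FES with PT, and PTK6 with PT was well above it in both dyes of 1 array only. In Cy3 FGR was so on no array, LCK on none, ABL1 A_24_P281101 and A_24_P393711 not in U87 10 Gy, ABL2 A_24_P263878 not with Si306, SRC not in U87 Si306 + 2 Gy and ABL1 A_24_P291016 on 1 array there. Their values and signs there, here and below, rest in part or in whole on background signal and give no exact fold. Under median centring, signs turned in U87 2 Gy for LCK (-0.29), FYN (0.45), ABL1 A_24_P281101 (-0.37), ABL2 A_23_P138099 (0.33), FGR (-0.053), FES (-0.54) and CBL (0.28). In U87 10 Gy they turned for LCK (-0.23), FYN (0.34), ABL1 A_24_P281101 (-0.22), ABL1 A_24_P393711 (-0.34), FGR (-0.066) and PTK6 (-0.29). In U87 Si306 + 2 Gy they turned for LCK (-0.44), SRC (-0.10), ABL1 A_24_P281101 (-0.54), YES1 A_24_P48403 (0.63), ABL1 A_23_P60180 (0.32), FGR (-0.25), ABL1 A_24_P291016 (-0.30), ABL1 A_24_P282416 (-0.61), ABL2 A_24_P263878 (-0.23), CDC37 (0.17), FES (0.10), VAV3 (0.37), CBL (0.78) and PTPN11 (0.42). In U87 Si306 + 10 Gy they turned for LCK (-0.25), YES1 A_24_P48403 (0.21), ABL1 A_23_P60180 (0.25), FGR (-0.032), ABL1 A_24_P282416 (-0.24), ABL2 A_24_P263878 (-0.10), CDC37 (0.17), FES (0.26), VAV3 (0.31) and PTPN11 (0.023). Between doses of Si306 they turned for FYN (-0.22), ABL1 A_24_P281101 (0.19), ABL1 A_24_P393711 (0.33) and ABL1 A_23_P60180 (-0.070).

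The separate-channel model, which compares intensities between slides, turned signs in U87 2 Gy for LYN (1.24), LCK (-0.17), SRC (-0.32), CSK (-0.33), CDC37 (-0.37), VAV3 (-1.16), CBL (0.57), PTK6 (1.81) and ARHGAP35 (-1.60). In U87 10 Gy it did so for LCK (-0.18), SRC (-0.35), ABL2 A_23_P138099 (-1.49), FGR (-0.054), ABL1 A_24_P282416 (-0.40), CSK (-0.46), CDC37 (-0.37), FES (2.09), VAV3 (-1.30), CTTN (-0.14), CBL (0.30), ARHGAP35 (-1.65) and PTPN11 (-0.00061). In U87 Si306 + 2 Gy it did so for LCK (-0.034), SRC (-0.51), FYN (-1.47), ABL2 A_23_P138099 (-0.076), FGR (-0.048), ABL1 A_24_P282416 (-0.31), ABL2 A_24_P263878 (-0.055), FES (1.82), CTTN (-0.43) and CBL (0.73). In U87 Si306 + 10 Gy it did so for LCK (-0.14), SRC (-0.45), FYN (-1.43), ABL2 A_23_P138099 (-0.81), ABL1 A_23_P60180 (0.10), ABL1 A_24_P282416 (-0.27), ABL2 A_24_P263878 (-0.12), FES (2.09), CTTN (-0.31) and ARHGAP35 (-2.59). The mean of the YES1 probes was -0.046 in U87 10 Gy. Normexp on all spots, added after seeing the data, put LCK at -0.0013 and ABL1 A_24_P282416 at -6.9e-07 in U87 Si306 + 10 Gy, and 32 further results of kinase probes then missed the limit.

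Kinase probes called in U87 2 Gy were 1 with the scanner software's ratio or the value table and 3 with separate channels, and in U87 10 Gy 3 with separate channels. In U87 Si306 + 2 Gy they were 3 with the ratio or the value table, 2 with separate channels and 0 with the mean of a gene's probes, where the size for ABL2 is not known. In U87 Si306 + 10 Gy they were 1 with the ratio, the value table or median centring and 2 with separate channels. Separate channels called 6904, 6845, 7825 and 7844 of 28276 probes in the 4 configurations. The scanner software's ratio called 3.69%, 3.96%, 5.87% and 3.97% of all probes. Whole-array counts for the other settings follow below, and no result about the kinases is read from these counts.

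Over the whole array 209, 278, 198 and 104 probes were called in the configurations, and 12 and 47 between doses of PT and of Si306. The scanner software's ratio called 1120, 1203, 1785, 1206, 91 and 345, while the authors' values called 1119, 1205, 1786, 1207, 91 and 345. Median centring called 1440, 1005, 5030 and 1393, and 120 between doses of Si306. Separate channels called 6904, 6845, 7825 and 7844, and 0 between doses of PT. Normexp on all spots called 84, 144, 64, 18, 3 and 12. The mean of a gene's probes called 134 in U87 2 Gy and 130 in U87 Si306 + 2 Gy. An offset of 10 called 342 and 222 with Si306 and 94 between its doses, and a strict filter 26 there. Leaving out 1 array at a time gave 196 to 225, 278 to 288, 182 to 212, 104 to 115, 10 to 31 and 42 to 51, with 31 between doses of PT without array 2 of U87 2 Gy. Without both arrays that held a mislabelled scan 29 were called there. Of the calls in the configurations 93.8%, 85.3%, 75.3% and 74.0% were higher, against 76.2%, 69.2%, 68.3% and 64.4% with the scanner software's ratio, 99.7%, 99.7%, 97.7% and 99.9% with median centring and 52.8%, 52.2%, 51.0% and 50.6% with separate channels.

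The replicate numbers of the labels did not pair the samples, since the deviations of 36 same-number pairs correlated at -0.23 to 0.22 (median -0.0037), with 2 over 0.1. With the replicate block, on samples as labelled, ABL2 in U87 Si306 + 2 Gy was 1.36, and 5 probes were called between doses of PT, as without the block.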
